A study of Arabidopsis thaliana with 4 samples.

Results

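The UDP-glycosyltransferases, or UGTs, were described in seedlings of Arabidopsis thaliana through every probe set of an Affymetrix array that names 1 gene and whose gene symbol starts with UGT and a digit, at any signal level. These were 47 of 22810 probe sets, for 47 genes, and each of them had its own probe set without the suffix that marks shared probes. The array annotation and the TAIR10.1 gene table were used for names. That table holds 58 genes with such a symbol. Of the others, UGT71D1, UGT73B2, UGT73B3 and UGT89B1 were listed only on probe sets naming several genes, and UGT73C6, UGT74E2, UGT74F2, UGT75B1, UGT75B2, UGT84A2 and UGT85A1 were not analysed here.

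UGTs move a sugar from a UDP-sugar donor onto small molecules, and in plants their acceptors include hormones, phenylpropanoids, flavonoids, glucosinolate precursors, sterols and foreign compounds. The sugar makes the acceptor more soluble, often ends its activity, and prepares it for storage in the vacuole, from which glucosidases can release it. The number in a UGT name is the family by sequence likeness and the letter is the group within it, so that a family can hold enzymes with different acceptors. Many UGT genes lie side by side in the genome.

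The 4 arrays carried RNA of whole, untreated Col-0 seedlings, 2 weeks old, grown at 22 °C on agar plates (3% sucrose) in long days of 16 h light and 8 h dark. Of these, 2 were wild type and 2 were titled as plants overexpressing At1g54160, the locus of NFYA5, a subunit of a factor that binds CCAAT boxes. In the series' design text this second group appears as an nfya5 mutant instead. The sample titles are used here, and the label could not be checked on NFYA5 itself, for which no probe set is listed. The promoter of the transgene, the number of lines and the number of plants pooled are not given in the sources used here, nor whether a group's arrays represent separate cultures. The p-values may therefore rest on technical spread.

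Values are MAS5 signals in arbitrary units, scaled by the authors to a target of 500 on each array, and the median signal was between 181.4 and 194.1. Signals of different probe sets depend on the probes as well as on the transcript, so they do not rank genes by abundance. Log2 signals of replicate arrays correlated at 0.989 in wild type and 0.988 in the overexpressor, and those of arrays from different groups at 0.979 to 0.985. Of the fixed seedling markers, 3 of 18 green tissue genes were listed, with a summed signal of 52233 and 55432 in wild type and 50668 and 55182 in the overexpressor. For root, 15 fixed symbols gave 3 listed genes, with sums of 11818 and 12572 against 12795 and 13450. Most of this sum was PYK10, and the root hair gene EXPA18 had the opposite order, at 169.7 and 224.6 against 130.5 and 151.3. The remaining listed root gene, EXPA7, had 185.2 and 240.6 against 245.6 and 220.5, with overlapping groups. For the stomatal lineage, 3 of 6 were listed, with sums of 378 and 421 against 417 and 424. The 1 listed gene of 14 for flower, pollen and seed, AGL24, had 94.4 and 75.6 against 128.7 and 106.8. Whether these sums played a part in the UGT values was not tested, and in whole seedlings fewer cells of a type and less RNA per cell cannot be told apart.

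None of the tested UGTs passed limma's test between the groups. UGT71C2 and UGT74B1 passed only in some alternative fits, such as that with the replicate number added as a block. Under that block the calls over all probe sets rose from 180 to 1075, and no label says that a number marks a shared batch. Lower on average in the overexpressor were UGT71C2, UGT72E1, UGT71C1 and UGT71C5, the last of which acts on abscisic acid and UGT72E1 on lignin precursors, and higher were UGT74B1 of glucosinolate synthesis, UGT76C2 of cytokinin inactivation and UGT84A3 of hydroxycinnamate ester synthesis. These 7, by a fold of 1.23 to 1.55 on the signal + 50 scale, were the tested members with a log2 fold change of at least 0.3 in size. Leaving out 1 array moved the values of UGT71C2, UGT71C1, UGT72E1 and UGT74B1 by over 1.5 times, as given with each gene. The 7 make up 26.9% of the tested members, beside 14.9% of all tested probe sets. The bound of 0.3 was not planned in advance, and UGT71C5 and UGT84A3 lie on it, at -0.30 and 0.30. A probe set was tested where its mean signal over the 4 arrays was at least 100, which 26 of 47 members reached (55.3%, as against 55.5% of all probe sets naming 1 gene). In limma's moderated test on log2(signal + 50), two-sided and adjusted over 13961 probe sets, 0 of the 26 had an adjusted p under 0.05, where 1.29% of all tested probe sets did. The smallest adjusted p of a member was 0.11. At an unadjusted p under 0.05 there were 5 members, or 19.2%, beside 16.5% of all tested probe sets. The median log2 fold change, overexpressor minus wild type, was 0.06 over the 26 members and 0.02 over all tested probe sets. Of the members 17, or 65.4%, had a positive value, beside 53.2% of all tested probe sets, and 9 a negative one.

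**Figure D1:**
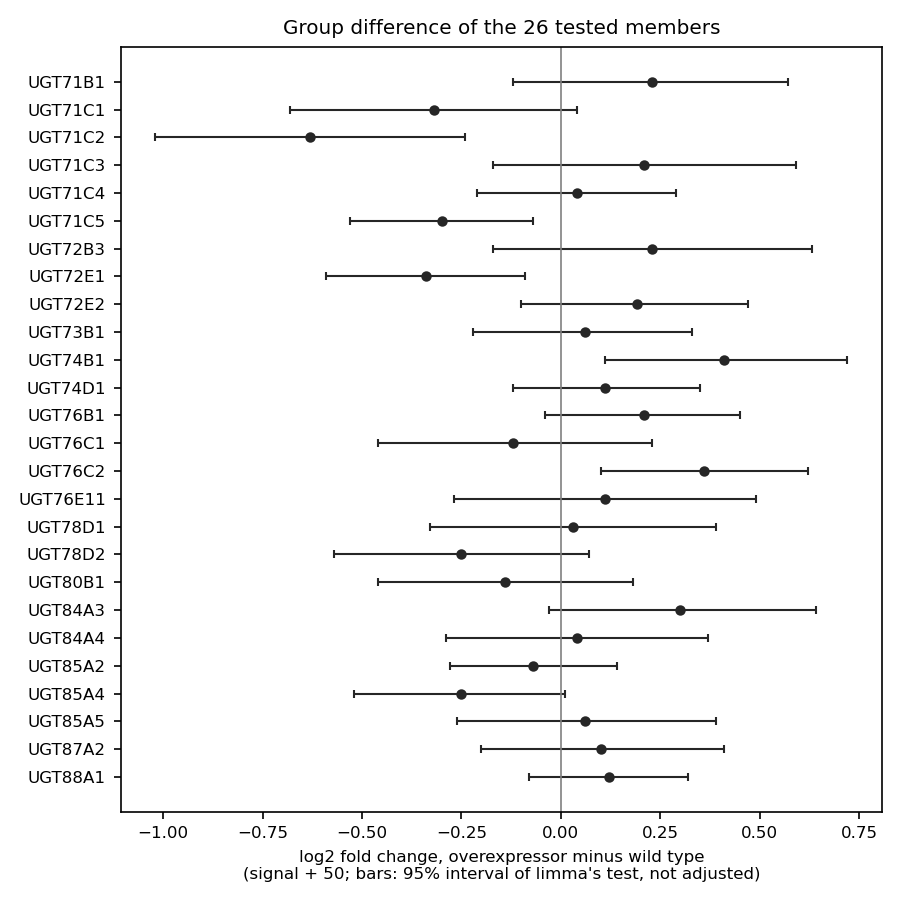
Log2 fold change of the 26 tested members, overexpressor minus wild type, on the log2(signal + 50) scale. Points are limma's estimates and bars are 95% intervals, not adjusted for the number of tests. The values run from -0.63 for UGT71C2 to 0.41 for UGT74B1, and 5 intervals exclude 0.

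The test bounded the differences between these arrays that it did not call. Whether a group's arrays represent separate cultures is not known, so the bounds may not hold between plants. The standard errors of the members were between 0.09 and 0.18, and for 25 of 26 the 95% interval lay within -1 and 1, that is, within a 2-fold change of signal + 50 in either direction. This scale understates changes in the signal itself, the more so the dimmer the probe set: with 1 added in place of 50 the value of UGT71C2 was -0.74 rather than -0.63 and that of UGT72B3 0.34 rather than 0.23. UGT71C2 was the exception, with an interval from -1.02 to -0.24. Over the whole array the smallest change that passed was 0.41 in size. A miss of the threshold therefore does not show equal levels. At any signal level the groups did not overlap for 22 of the 47 members, or 46.8%, beside 43.0% of all non-control probe sets. They did not overlap for 16 of the 26 tested members, or 61.5%, beside 48.1% of all tested probe sets. Of these 9 were higher and 7 lower in the overexpressor, beside 26.1% and 22.0% of all tested probe sets.

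**Figure D2:**
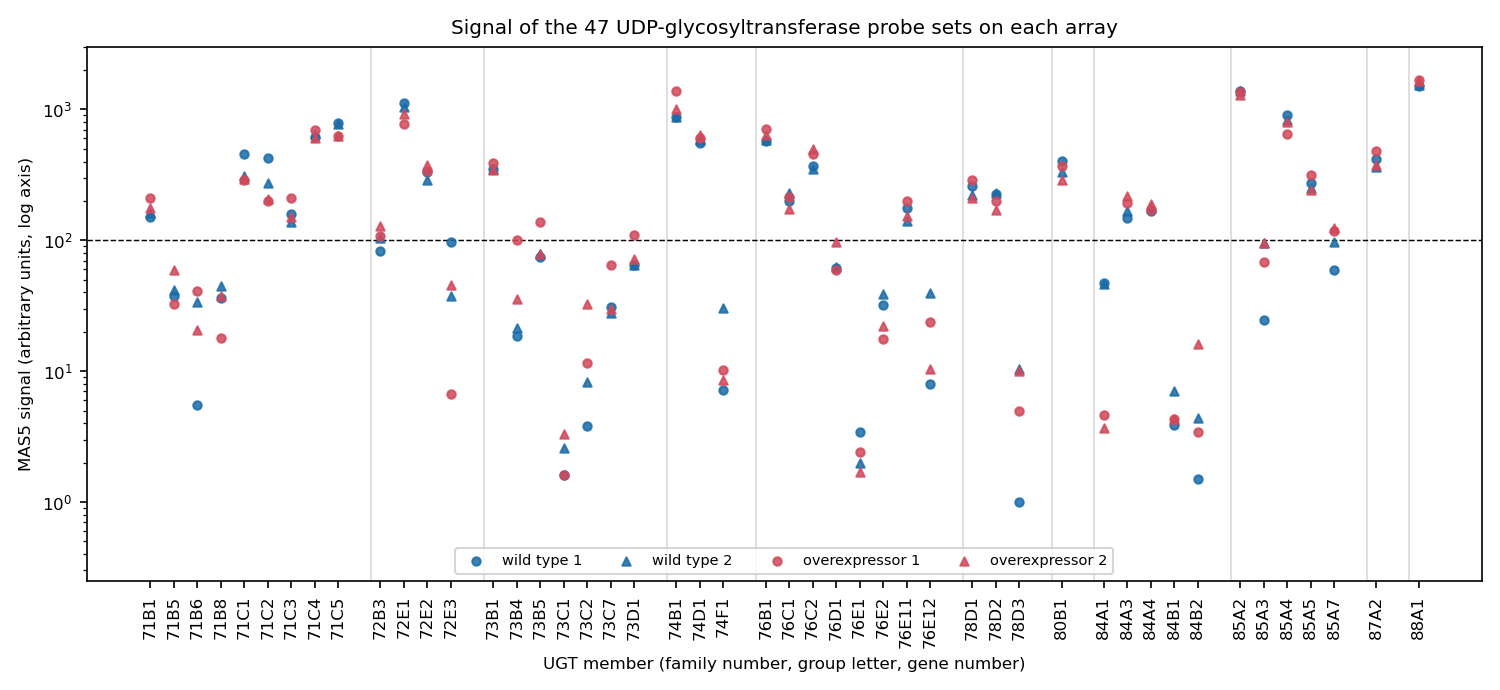
MAS5 signal of all 47 members on each of the 4 arrays, on a log axis, ordered by family. Blue marks wild type, red the overexpressor, circles replicate 1 and triangles replicate 2, and the dashed line is the minimum mean signal of 100. The 21 members with a mean under the line include 6 of 7 members of family 73.

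Family 71, with 9 members of which 6 were tested, held the largest difference among the tested UGTs. UGT71C2 gave 422.6 and 273.1 in wild type and 198.4 and 206.5 in the overexpressor. Both overexpressor arrays were below both wild type arrays, but the wild type arrays differed from each other by 0.55 on the log2 scale, nearly as much as the groups did. Its log2 fold change was -0.63 ± 0.18 (SE, limma, adjusted p = 0.11), which was -0.36 without wild type replicate 1 and -0.90 without wild type replicate 2. With the replicate number as a block it passed (limma, adjusted p = 0.0014), but no label says that a number marks a shared batch.

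UGT71C1, the direct neighbour of UGT71C2, had the same order of arrays. Its signals were 454.6 and 309.3 in wild type and 286.7 and 296.0 in the overexpressor, with a log2 fold change of -0.32 ± 0.16 (SE, limma, adjusted p = 0.36) that was -0.07 without wild type replicate 1 and -0.56 without wild type replicate 2. In both genes wild type replicate 1 stood highest and the other arrays lay closer together. In vitro UGT71C1 glycosylates phenolic compounds.

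The other run of this family is UGT71C5, UGT71C4 and UGT71C3. UGT71C5, which joins glucose to abscisic acid, gave 786.7 and 779.2 in wild type and 621.4 and 631.2 in the overexpressor. Its replicates nearly coincided, at 783 ± 5.3 against 626.3 ± 6.93 (SD, n = 2), and the groups did not overlap. The log2 fold change was -0.30 ± 0.10, with a 95% interval from -0.53 to -0.07 (limma, adjusted p = 0.18). UGT71C4 lay at 619.2 and 646.8 against 697.8 and 608.9, a log2 fold change of 0.04 with overlapping groups. UGT71C3, which glucosylates methyl salicylate, lay at 159.7 and 138.6 against 211.8 and 151.9, a log2 fold change of 0.21, also with overlap. The differences between these neighbours were not tested, and cross-hybridisation between related UGTs was not measured.

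UGT71B1 had 151.4 and 162.9 in wild type and 209.7 and 175.9 in the overexpressor, a log2 fold change of 0.23 ± 0.15 (SE, limma, adjusted p = 0.52). Its relatives UGT71B6 and UGT71B8, which glucosylate abscisic acid, and UGT71B5 were under the minimum. UGT71B6 had 5.5 and 33.5 in wild type and 41.0 and 20.6 in the overexpressor, UGT71B8 had 36.1 and 45.0 against 17.8 and 37.5, and UGT71B5 had 37.3 and 42.0 against 32.7 and 59.2. The groups overlapped in all 3. Of the members grouped here under abscisic acid, UGT71C5 was thus the 1 tested, and other members may also accept it.

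Family 72 includes the enzymes that glucosylate monolignols, the building blocks of lignin, and their aldehydes. UGT72E1, which acts on coniferyl and sinapyl aldehyde, gave 1115.3 and 1043.1 in wild type and 770.6 and 923.9 in the overexpressor. Both overexpressor arrays were lower, with a log2 fold change of -0.34 ± 0.11 and a 95% interval from -0.59 to -0.09 (limma, adjusted p = 0.17), which was -0.21 without overexpressor replicate 1. UGT72E2, which acts on coniferyl and sinapyl alcohol, had the opposite order without overlap, with 330.1 and 287.8 in wild type and 340.8 and 374.8 in the overexpressor (log2 fold change 0.19 ± 0.13, limma, adjusted p = 0.53).

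UGT72E3, which prefers sinapyl alcohol, was under the minimum and uneven within both groups, at 97.8 and 37.8 in wild type and at 6.7 and 45.4 in the overexpressor. UGT72B3 had 83.3 and 103.4 against 107.0 and 128.7, a log2 fold change of 0.23. Its mean of 105.6 put it just inside the minimum, which it reached through the overexpressor arrays, and UGT85A7, with a mean of 99.55, was just outside. On its relative UGT72B1, which the array names GT72B1 and the rule therefore leaves out, the signals were 696.7 and 631.0 against 781.4 and 684.7, a log2 fold change of 0.13 ± 0.11.

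Family 84 holds, besides auxin enzymes, the enzymes that form glucose esters of hydroxycinnamic acids such as sinapate. The neighbours UGT84A1, UGT84A3 and UGT84A4 belong to this group, and differences between them were not tested. UGT84A1 gave 47.5 and 46.5 in wild type and 4.6 and 3.7 in the overexpressor, so that the replicates of each group nearly coincided. All of these values lie under the minimum, so the member was not tested, and without detection calls nothing shows that either group was above background. On the log2(signal + 50) scale its difference was -0.84. Fitted without the minimum it had an unadjusted p of 0.0007 and did not pass over 22746 probe sets (limma, adjusted p = 0.21). The size of a dim difference depends on the pseudocount: it was -3.23 with 1 added, -1.64 with 16 and -0.50 with 100. Among 8785 non-control probe sets under the minimum, 12, or 0.137%, had a difference of -0.8 or lower on the scale with 50 added, a bound chosen after the value of UGT84A1 was seen.

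UGT84A3 had 147.4 and 166.9 in wild type and 193.2 and 217.2 in the overexpressor, higher on both overexpressor arrays, with a log2 fold change of 0.30 ± 0.15 (SE, limma, adjusted p = 0.35). UGT84A4 had 168.2 and 178.1 against 170.1 and 189.8, a log2 fold change of 0.04, with overlapping groups. The other run of the family, UGT84B2 and UGT84B1, was dim throughout. UGT84B1, which forms the glucose ester of indole-3-acetic acid, had 3.9 and 7.0 against 4.3 and 4.3, and UGT84B2 had 1.5 and 4.4 against 3.4 and 16.0.

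Family 74 had 3 members with different acceptors. UGT74B1, which adds the sulfur-linked glucose in the making of the glucosinolate core, had 874.3 and 873.3 in wild type and 1390.7 and 999.8 in the overexpressor. Both overexpressor arrays were higher, and they differed from each other by 0.46 on the log2 scale whereas the wild type arrays coincided. The log2 fold change was 0.41 ± 0.14, with a 95% interval from 0.11 to 0.72 (limma, adjusted p = 0.17). Without overexpressor replicate 2 it was 0.64, and without overexpressor replicate 1 it was 0.18. With the replicate number as a block UGT74B1 passed (limma, adjusted p = 0.0094), but no label says that a number marks a shared batch.

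UGT74D1, which acts on auxin and its oxidised form, had 557.5 and 580.7 against 606.3 and 633.9, a log2 fold change of 0.11 ± 0.11 (SE) without overlap. UGT74F1, a salicylate glucosyltransferase, was under the minimum, with 7.2 and 30.3 in wild type and 10.2 and 8.6 in the overexpressor.

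Family 76 has acceptors among cytokinins, jasmonates and immune signals. UGT76C1 and UGT76C2 are neighbours that both join glucose to a ring nitrogen of cytokinins. UGT76C2 had 368.1 and 350.0 in wild type and 457.2 and 495.6 in the overexpressor, higher on both overexpressor arrays by more than the spread within either group, with a log2 fold change of 0.36 ± 0.12 and a 95% interval from 0.10 to 0.62 (limma, adjusted p = 0.16). It lay between 0.31 and 0.42 when any 1 array was left out. UGT76C1 had 198.2 and 230.9 against 214.8 and 174.2, a log2 fold change of -0.12 with overlapping groups.

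UGT76B1, which glucosylates isoleucic acid, salicylate and N-hydroxypipecolic acid and thereby tempers immune responses, had 571.9 and 580.3 in wild type and 710.1 and 637.2 in the overexpressor. The groups did not overlap, and the log2 fold change was 0.21 ± 0.11 (SE, limma, adjusted p = 0.38). UGT76E11 had 176.9 and 140.7 against 200.3 and 152.2, a log2 fold change of 0.11. The other members were under the minimum. UGT76D1, which acts on dihydroxybenzoic acids formed from salicylate, had 61.2 and 62.7 against 59.4 and 96.5. UGT76E12 had 8.0 and 39.5 against 23.6 and 10.3. Of the neighbours UGT76E1 and UGT76E2, the former, which acts on hydroxylated jasmonate, was under 10 on every array. UGT76E2 had 32.2 and 38.9 against 17.5 and 22.2, lower on both overexpressor arrays at a low signal.

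Family 78 decorates flavonoids at a shared position with different sugars. UGT78D2, which adds glucose to flavonols and anthocyanidins, had 224.7 and 230.8 in wild type and 198.2 and 169.4 in the overexpressor. Both overexpressor arrays were lower, with a log2 fold change of -0.25 ± 0.15 (SE, limma, adjusted p = 0.43). UGT78D1, which adds rhamnose to flavonols, had 262.3 and 220.2 against 287.6 and 210.9 and a log2 fold change of 0.03, whose sign turned under quantile normalization. UGT78D3, which adds arabinose, had 1.0 and 10.4 against 5.0 and 10.1. UGT80B1, the member of family 80, which glucosylates sterols and is known for its role in the seed coat, had 400.3 and 333.6 against 366.6 and 290.5, a log2 fold change of -0.14 with overlap. On the probe set named SGT, for the related UGT80A2 that the rule leaves out, the log2 fold change was 0.04 ± 0.15.

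Family 85 showed bright and dim neighbours. UGT85A7, UGT85A2, UGT85A5 and UGT85A3 form a run. UGT85A2 had 1394.1 and 1390.8 in wild type and 1358.3 and 1293.9 in the overexpressor, a log2 fold change of -0.07 ± 0.09 (SE). UGT85A5 had 275.6 and 252.2 against 315.4 and 243.6, a log2 fold change of 0.06. UGT85A7 had 59.5 and 96.7 against 117.9 and 124.1, higher on both overexpressor arrays, and UGT85A3 had 24.8 and 94.6 against 67.8 and 95.8. UGT85A3 had the largest gap between arrays of a group among the 47 members, 0.95 on the log2 scale within wild type. Outside the run, UGT85A4 had 904.4 and 825.7 against 647.9 and 794.7, lower on both overexpressor arrays, with a log2 fold change of -0.25 ± 0.12 (SE, limma, adjusted p = 0.32) that was -0.11 without overexpressor replicate 1 and -0.39 without replicate 2.

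Families 87 and 88 had 1 member each. UGT87A2, which has been linked to flowering time, had 421.3 and 366.3 in wild type and 480.1 and 377.9 in the overexpressor, a log2 fold change of 0.10 with overlap. UGT88A1 had 1504.9 and 1550.2 against 1679.1 and 1645.1, higher on both overexpressor arrays by a log2 fold change of 0.12 ± 0.09 (SE, limma, adjusted p = 0.57).

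**Figure D3:**
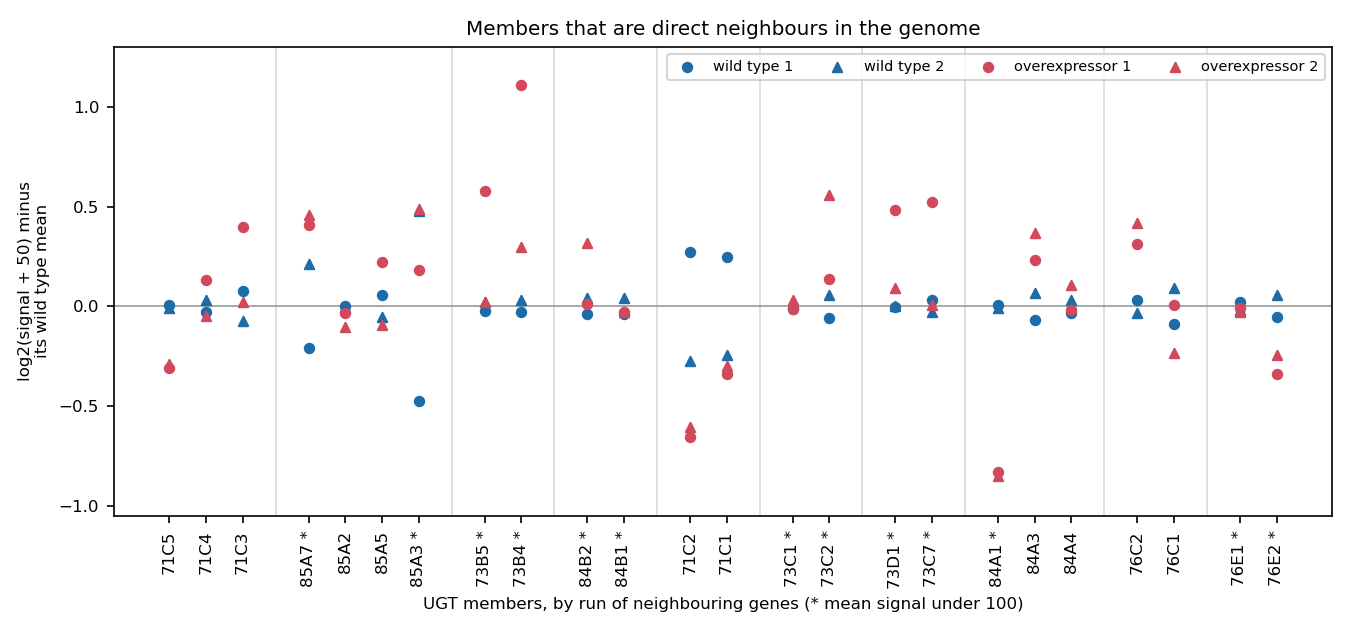
Members that are direct neighbours among the protein-coding genes of TAIR10.1, as 10 runs holding 24 of the 47 members. Each point is 1 array, as log2(signal + 50) minus the gene's wild type mean, and stars mark members with a mean signal under 100. UGT71C2 and UGT71C1 have the same order of arrays, and UGT84A1, not tested, lies at -0.84 beside UGT84A3 at 0.30 and UGT84A4 at 0.04.

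Family 73, which includes enzymes that conjugate foreign compounds, was mostly dim, with 1 of 7 members tested. UGT73B1 had 352.8 and 348.5 in wild type and 391.8 and 343.1 in the overexpressor, a log2 fold change of 0.06 ± 0.12 (SE) with overlap. The neighbours UGT73B4 and UGT73B5 had low, even signals in wild type and a high value on overexpressor replicate 1. UGT73B4, which can conjugate reduced trinitrotoluene, had 18.5 and 21.4 in wild type and 100.9 and 35.9 in the overexpressor. UGT73B5, which has been linked to the hypersensitive response, had 74.0 and 78.1 against 138.1 and 78.0. Of this pair, UGT73B4 had groups that did not overlap.

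The neighbours UGT73C7 and UGT73D1 also had their highest value on overexpressor replicate 1. UGT73C7, which acts on hydroxycinnamic acids in immunity, had 31.2 and 27.8 in wild type and 64.2 and 29.7 in the overexpressor. UGT73D1 had 64.6 and 65.0 against 110.5 and 72.3. The neighbours UGT73C1 and UGT73C2 had theirs on overexpressor replicate 2, with 1.6 and 2.6 against 1.6 and 3.3 for UGT73C1, which also conjugates reduced trinitrotoluene, and 3.8 and 8.3 against 11.5 and 32.4 for UGT73C2.

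Overexpressor replicate 1 exceeded replicate 2 by at least 0.5 on the log2(signal + 50) scale for 3 of the 47 members (6.38%), UGT73B4, UGT73B5 and UGT73C7, beside 2.8% of all non-control probe sets, with the bound chosen after the values were seen. All 3 belong to family 73 and were under the minimum, whereas that share covers bright and dim probe sets alike. The share among probe sets under the minimum was not computed. Gaps of this size in the other direction or within wild type lay outside this family. Replicate 1 minus replicate 2 was -0.75 for UGT72E3 in the overexpressor. Within wild type it was 0.75 for UGT72E3, -0.59 for UGT71B6, -0.63 for UGT76E12, 0.55 for UGT71C2 and -0.95 for UGT85A3. Over all members the order of these arrays was even, with replicate 1 higher in 24 (51.1%, beside 48.1% of all non-control probe sets) and replicate 2 in 22. The tested members differed between the overexpressor arrays by a median of 0.18 in size, beside 0.12 over all tested probe sets, and between the wild type arrays by 0.10, beside 0.13. Their median difference between groups was 0.20 in size, beside 0.13.

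**Figure D4:**
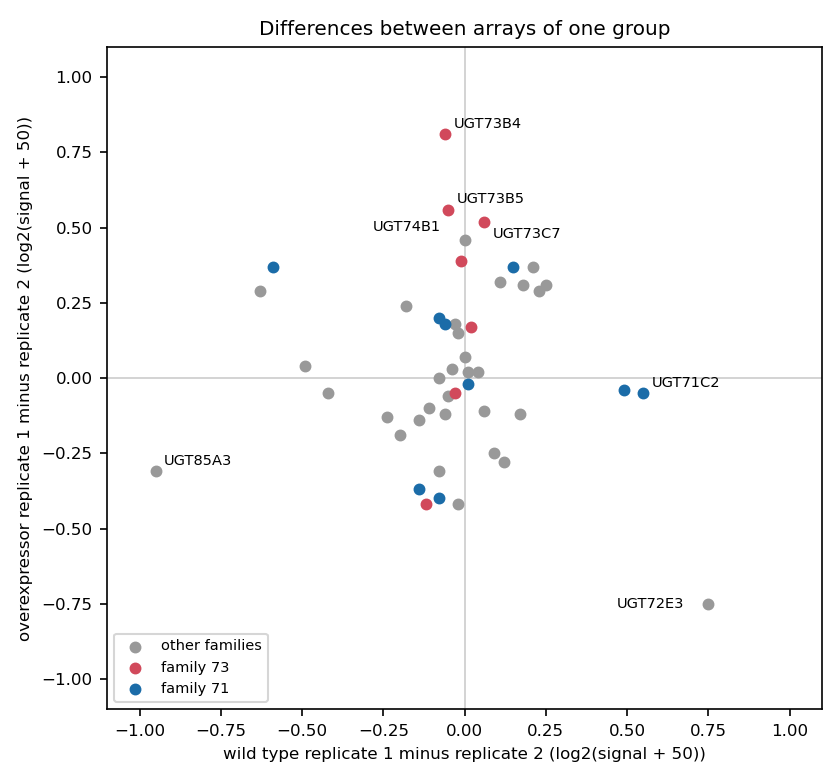
Difference between the arrays of a group for the 47 members on the log2(signal + 50) scale, wild type on the horizontal axis and the overexpressor on the vertical axis, replicate 1 minus replicate 2. UGT73B4, UGT73B5 and UGT73C7 lie at 0.81, 0.56 and 0.52 on the vertical axis and near 0 on the horizontal one, whereas UGT85A3 and UGT71C2 lie at -0.95 and 0.55 on the horizontal axis.

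Grouped by known acceptor, the members had values on both sides of 0. The 4 tested members acting on phenylpropanoids had log2 fold changes from -0.34 to 0.30, and 0 passed. Of the 6 tested members grouped here under abscisic acid, salicylate and related immune signals, auxin or cytokinin, UGT71C5 and UGT76C1 had negative values. UGT71C3, UGT76B1, UGT74D1 and UGT76C2 had positive ones. The 3 members for jasmonate and foreign compounds were under the minimum. The flavonoid, glucosinolate and sterol members are described above. The 22 members outside these groups had 12 tested genes with a median of 0.06.

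Among other genes of the same metabolism, in lists chosen with earlier results of these data known, some passed. Of 10 tested glutathione transferases, which conjugate foreign compounds with glutathione, 3 were higher past the threshold, beside 0.53% of all tested probe sets. These were GSTU25, GSTU20 and GSTU22, at log2 fold changes of 1.36, 0.86 and 0.83, and the median over the 10 was 0.01. GSTU25 had a wild type mean of 99.5 and reached the minimum of 100 through the overexpressor arrays, with a mean of 331. Of 10 tested beta-glucosidases, which can release the sugar that UGTs attach, BGLU44 was higher (log2 fold change 0.73 ± 0.11, limma, adjusted p = 0.019), beside 0.53% of all tested probe sets. The median was 0.13, beside 0.02 over all tested probe sets. Of 12 tested genes whose symbol starts with CYP and a digit, 0 passed by limma. Of them 2 had an unadjusted p under 0.05, which 16.5% of all tested probe sets had. Most of the 12 are cytochromes P450, which often make the hydroxyl groups that receive the sugar. CYP59 and CYP71 are cyclophilins instead, and neither was among the 2. The smallest p was that of the P450 gene CYP71B6, at a log2 fold change of 0.55 ± 0.17 (limma, adjusted p = 0.14). Its signals were 844.0 and 786.4 in wild type and 1533.5 and 962.6 in the overexpressor.

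Of 8 tested glycosyltransferases of other families 0 passed by limma and 1 had an unadjusted p under 0.05, no more than the 16.5% of all tested probe sets. This was CSLD2, a cellulose-synthase-like gene, at -0.30 ± 0.10 (adjusted p = 0.17). Few genes that make or use UGT acceptors were listed. The phenylpropanoid genes CCR2, HCT and ALDH2C4 had log2 fold changes of 0.37, -0.12 and -0.02, and the glucosinolate genes BCAT4, GTR1 and GTR2, which serve side chain synthesis and transport, had 0.29, 0.15 and -0.24. None of these 6 passed, by limma or at an unadjusted p of 0.05. BCAT4 had 1652.4 and 1109.0 in wild type and 1880.7 and 1470.4 in the overexpressor, and so overlapped between the groups. GTR1 had 285.2 and 257.3 against 299.0 and 312.6, higher without overlap, as was UGT74B1 of the same pathway. GTR2 had 1166.4 and 883.6 against 832.6 and 872.1, lower without overlap. CHIL, the tested flavonoid gene, had 0.19 ± 0.22. CCR2 and CHIL had wild type means of 99.9 and 92.2, and reached the minimum of 100 through the overexpressor arrays. Of 3 tested auxin-conjugating GH3 genes WES1 was lower, at -0.73 ± 0.11 (limma, adjusted p = 0.019), beside 0.759% of all tested probe sets that were lower past the threshold, and GH3.3 and GH3.17 had 0.08 each. The lists for ABC transporters, salicylate, abscisic acid, sterols and brassinosteroids, cytokinin and UDP-glucose supply had 0 tested genes and are not analysed here.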

How the data were processed

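Signals of 4 single-colour arrays were used, with groups and replicate numbers from the sample titles. The authors deposited linear intensities, which are MAS5 signals per the submitters' processing notes and were scaled to a target of 500 per the labels. Neither a MAS5 version nor a genome build is given in the sources used here, and coordinates are left out. Global scaling hides a change shared by most transcripts. Control probe sets were left out, those averaging at least 100 over the arrays were kept, 50 was added before log2, and 1 group term was fitted over 13961 probe sets with limma 3.58.1 in R 4.3.3 (eBayes with an intensity trend), with Benjamini-Hochberg adjustment and a threshold of 0.05. The same fit was checked on simulated arrays, where it called 48.2% of 1.5-fold changes of signal + 50 and 93% of 2-fold ones. With 2 arrays a group, the smallest exact permutation p would be 0.333. The number of arrays limits the precision.

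The members and lists were chosen with earlier results of these data known. All members are named. Full statistics go to members that pass or, up to 12, have the smallest p, and array values also to the brightest member of each family and to uneven members. Of the other lists, members that pass or have the smallest p are named, and all of lists with 3 tested genes. Array values of further members, the remarks on UGT84A1 and the roles by acceptor were added after values were seen. Sequences and promoters were not analysed here. The arrays numbered alike did not deviate together (correlation 0.056), so the numbers were not taken as pairs. Alternatives were other pseudocounts, filters, scalings, variance priors, a replicate block, each array left out, and only unshared probe sets naming 1 gene.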

Additional observations from a re-analysis of the deposited data

How the results depend on the processing

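The count of 0 UGT calls held under 12 of 15 alternatives. It was 2 with the replicate number as a block (UGT71C2 and UGT74B1, adjusted p of 0.0014 and 0.0094), 1 without wild type replicate 2 (UGT71C2) and 1 without overexpressor replicate 2 (UGT74B1), so that leaving out 1 array gave 0 to 1. The 180 calls over all probe sets became 1 without a filter, 9 with a constant variance prior, 56 over unshared probe sets naming 1 gene, where fewer were tested, 1075 with the replicate block, and 101 to 489 when 1 array was left out. In the latter fits the lone array of a group is assumed to vary like the other group. The titles number the arrays alike but no label says that a number marks a shared batch, and the cause of the other shifts was not tested. The median log2 fold change of the tested UGTs lay between -0.05 without overexpressor replicate 1 and 0.13 without overexpressor replicate 2. Of 280 values of 19 single members, 270 kept their sign and side of the threshold, 4 passed newly and 6 turned sign, all 6 small. UGT78D1 had -0.0038 under quantile normalization. When 1 array was left out, UGT78D1 ranged from -0.15 to 0.22, UGT73B1 from -0.03 to 0.14, UGT87A2 from -0.05 to 0.26 and UGT80B1 from -0.29 to 0.0034, the ends being the values without overexpressor replicate 1 and without replicate 2, and UGT78D1 also had -0.07 without wild type replicate 2. The count of turns leaves out UGT71C3, UGT71C4, UGT74D1, UGT76C1, UGT76E11, UGT84A4 and UGT85A5. These were tested too, but their single values were not followed under the alternatives. With 21 of 47 members under a mean signal of 100, low signal limits what can be said of those genes.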
